A study of Mus musculus with 12 samples.

Results

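The genes described here are transcription factors of adipocyte formation and of the mature adipocyte. A list of 10 symbols was looked up in a table of FPKM values for 23474 mouse genes, and 9 of them had a row, namely Pparg, Ppara, Ppard, Rxra, Cebpa, Cebpb, Klf15, Ebf2 and Zfp423. Cebpd was not analysed here. RNA had been sequenced from the epididymal white adipose tissue (eWAT) of male C57BL/6J mice, in 12 libraries, 3 for each of 4 groups. Every mouse was put on its diet when 5 weeks old and was killed at 17 weeks after 12 weeks of feeding, and all were fasted beforehand. The ND group ate a normal diet and the HFD group a high-fat diet. The GT group ate the same high-fat diet with 0.25% (w/w) of a green tea ethanol extract, and the TJ group ate it with 3% (w/w) of Taeeumjowuitang, a herbal formula. The labels name no transgene or deletion, each library came from 1 mouse, and eWAT is a mixture of adipocytes with stromal, vascular and immune cells, so that no value belongs to one cell type.

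Adipocytes form when a progenitor switches on a relay of transcription factors. C/EBPβ and C/EBPδ act early and switch on Pparg and Cebpa, which then maintain each other and bind side by side near most genes of lipid storage. PPARγ, the product of Pparg, works as a heterodimer with a retinoid X receptor such as RXRα and is the receptor of the thiazolidinedione drugs. PPARα and PPARδ share that partner and drive the use of fatty acids as fuel. Klf15 is a zinc finger factor that rises during adipocyte formation and with fasting and glucocorticoids, Ebf2 marks brown and beige adipocytes and their progenitors, and Zfp423 marks committed progenitors and holds back the thermogenic programme in white adipocytes.

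Promoter sequences are shown for the 3 factors of the relay with a row (Pparg, Cebpa and Cebpb) and for Klf15, so that their start regions can be compared. FPKM values sum over all transcripts of a gene, whichever start they use. RefSeq sequences of GRCm38.p6 held promoter windows for 8 of the members, 12 windows in all, each with 250 bases before and 50 after a transcription start and therefore 300 bases long. Every window below lies on the plus strand of the build and is written from 5′ to 3′, with the bases in capitals marking TATAAA (the TATA box), CCAAT (bound by the factor NF-Y) or CACGTG (the E-box), each searched on both strands. The window of Pparg is the one at its downstream start, where the GENCODE transcript Pparg-201 begins.
Pparg, chr6:115421816-115422115: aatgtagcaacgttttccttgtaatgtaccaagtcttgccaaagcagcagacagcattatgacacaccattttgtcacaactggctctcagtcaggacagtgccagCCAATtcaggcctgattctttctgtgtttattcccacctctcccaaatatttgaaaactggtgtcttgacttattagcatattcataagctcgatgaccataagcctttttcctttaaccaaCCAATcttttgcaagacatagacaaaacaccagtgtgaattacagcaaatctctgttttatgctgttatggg
Cebpa, chr7:35119043-35119342: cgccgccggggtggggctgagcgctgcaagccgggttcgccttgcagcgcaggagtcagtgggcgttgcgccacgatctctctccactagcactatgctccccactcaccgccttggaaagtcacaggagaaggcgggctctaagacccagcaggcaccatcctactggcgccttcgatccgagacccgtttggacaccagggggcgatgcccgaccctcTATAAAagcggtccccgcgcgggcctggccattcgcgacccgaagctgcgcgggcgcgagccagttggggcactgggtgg
Cebpb, chr2:167688665-167688964: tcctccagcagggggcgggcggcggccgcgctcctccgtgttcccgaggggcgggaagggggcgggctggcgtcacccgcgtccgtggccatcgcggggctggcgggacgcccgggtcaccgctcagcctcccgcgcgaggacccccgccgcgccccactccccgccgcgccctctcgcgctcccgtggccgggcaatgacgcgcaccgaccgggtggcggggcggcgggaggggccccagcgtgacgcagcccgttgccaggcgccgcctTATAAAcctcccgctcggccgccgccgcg
Klf15, chr6:90462326-90462625: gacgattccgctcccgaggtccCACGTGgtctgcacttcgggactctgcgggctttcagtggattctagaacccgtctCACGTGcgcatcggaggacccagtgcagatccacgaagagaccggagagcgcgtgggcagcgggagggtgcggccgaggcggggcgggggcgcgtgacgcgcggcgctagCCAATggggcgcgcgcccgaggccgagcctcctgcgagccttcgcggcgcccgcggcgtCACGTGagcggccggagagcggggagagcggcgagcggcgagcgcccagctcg

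These windows differed in composition. The Pparg window held 40.3% G and C, the Cebpa window 67.3%, the Klf15 window 73.3% and the Cebpb window 80.7%, against a median of 52.7% over 32851 promoter windows. Cebpa had its TATAAA at -30 from the start, the usual place of a TATA box, while the TATAAA of Cebpb lay at +21, within the transcript. Klf15 had CACGTG at -228, -172 and -3 and a CCAAT at -62, and Pparg had CCAAT at -144 and -22. Of all windows, 13.6% held TATAAA, 37.4% held CCAAT and 7.15% held CACGTG on either strand. The direct repeat bound by PPAR and RXR, which is AGGTCA, any base and AGGTCA again (in 0.0396% of all windows), and the C/EBP site, TTNCGNAA (in 2.47%), were found in none of the 12 windows, which says only that those letters were not in these bases. Pparg has 2 further windows upstream. A single AGGTCA, which 16.3% of all windows hold, lay at -28 in the first (chr6:115360894-115361193, 80.3% G and C), which has no GENCODE transcript start within 100 bases. The other (chr6:115362099-115362398, 62.7% G and C), where Pparg-203, Pparg-204 and Pparg-206 begin, held AGGTCA at -9 and, on the minus strand, TATAAA at -29 and CCAAT at -83. One window each of Rxra and Zfp423 held AGGTCA as well.

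Before any comparison the libraries were set side by side. ND replicate 1 stood apart: germ cell and epididymis markers made up 11.2% of its summed FPKM, against 0.000776% to 0.512% in the other 11 libraries, and its summed FPKM was 1002765, against 527904 to 725245. Its Spearman correlation with the other libraries over all genes was 0.665 to 0.829, while those 11 correlated with each other at 0.873 to 0.981. Its 7 adipocyte markers summed to 4159 FPKM, against 22066 and 32566 in the other ND libraries. Fold changes and counts of calls against the ND group are therefore given with and without it. The FPKM steps put the depth at about 9.77 to 19.5M fragments per library, with ND replicate 1 the shallowest, and no counting interval was taken from these rough values. The adipocyte markers were all above 0 in every library, as the label of the tissue has it. Their sum was 16371 to 19029 FPKM in the HFD group, 23436 to 27180 in the GT group and 29046 to 59867 in the TJ group. Fabp4 held most of it, with means of 13385, 17482 and 32918 FPKM in HFD, GT and TJ. Adipoq and Lipe also had higher means in TJ than in GT. Plin1 (665 in GT, 583 in TJ) and Cidec (2917 in GT, 2672 in TJ) had lower ones. The 12 macrophage markers summed to 4507 to 6375, 1701 to 4060 and 1124 to 3039 FPKM in HFD, GT and TJ. The 9 markers of adipose progenitors and stroma summed to 1911 to 2043 FPKM in the HFD group, 1144 to 1518 in the GT group and 1108 to 1216 in the TJ group. In such mixed tissue, fewer cells of a type and less RNA per cell cannot be told apart, which holds for every value below.

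**Figure D1:**
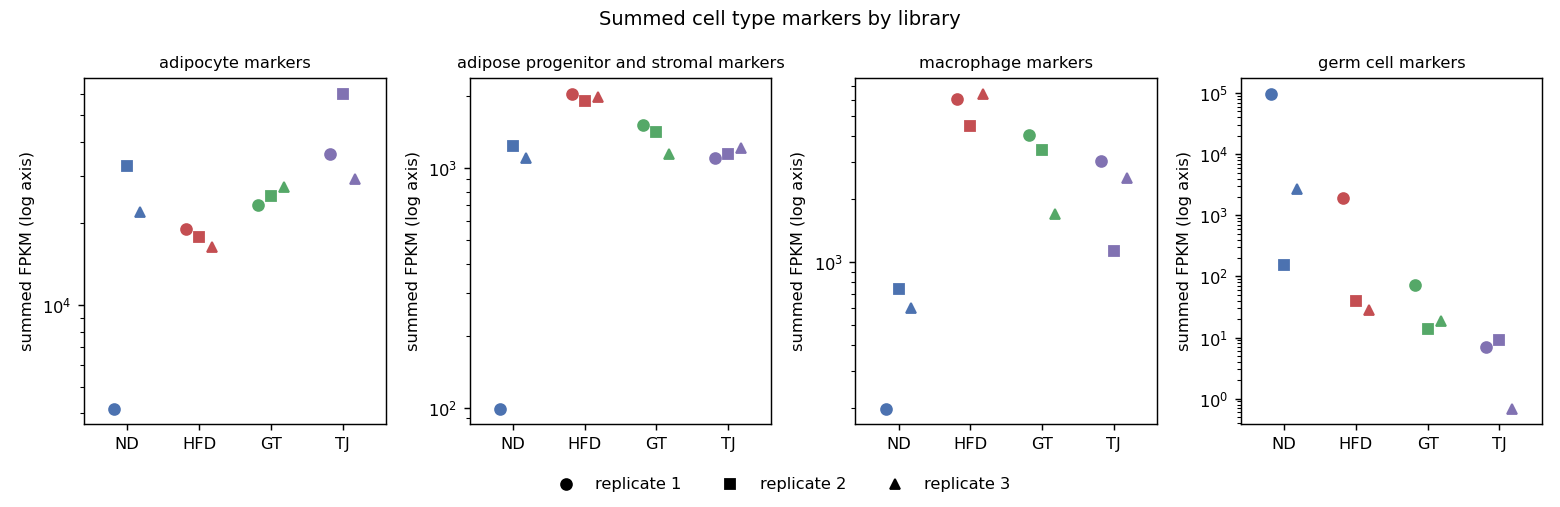
Summed FPKM (log axis) of adipocyte, progenitor and stromal, macrophage and germ cell markers in each library, 1 point per library, by diet group. ND replicate 1 lies lowest for adipocyte markers (4159) and highest for germ cell markers (95944), and the HFD libraries lie above all GT and TJ libraries for macrophage markers (4507 to 6375 against 1124 to 4060).

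The levels of the factors spanned a wide range. Leaving ND replicate 1 aside, Cebpa stood at percentiles from 96.3 to 98.3 of the genes above 0 in its library, Pparg from 90.0 to 95.8 and Rxra from 86.7 to 94.3. Zfp423 (66.2 to 89.7), Klf15 (54.6 to 77.2), Ppard (56.6 to 70.4), Cebpb (41.6 to 82.1) and Ebf2 (40.7 to 66.9) had overlapping ranges over the 11 libraries, and the top of the Zfp423 range overlapped with that of Rxra, so that no order is given among them. Ppara was lowest (26.0 to 39.8). FPKM is scaled to transcript length, so these levels may be set against each other, and Cebpa was the most abundant of the 9 in each of the 11 libraries.

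Pparg, the master regulator of fat cell formation (ENSMUSG00000000440, GRCm38 chr6:115360951-115490399, plus strand), had its highest mean of the 3 groups on a high-fat diet in TJ. Its level was 63.3, 62.7 and 51.8 FPKM in HFD replicates 1 to 3, and 75.7, 118 and 89.1 FPKM in the TJ replicates. All TJ libraries lay above all HFD libraries. The means were 94.3 ± 21.8 and 59.3 ± 6.47 FPKM (SD, n = 3 each), a ratio of 1.59, and the log2 fold change was 0.64 ± 0.19 (SE, adjusted p = 0.0547 by limma over all genes tested), just short of the threshold. All fold changes given with an SE are on the log2(FPKM + 1) scale, which understates changes of low genes, and a gene was called only at an adjusted p under 0.05 with a fold change of at least 1.5.

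In the GT group Pparg was 65.2, 66.5 and 98.4 FPKM, each above every HFD library, the nearest by little. The log2 fold change against HFD was 0.35 ± 0.18 (limma adjusted p = 0.247), and that of TJ against GT was 0.30 ± 0.23 (limma adjusted p = 0.405). In the ND group it was 92.5 and 71.5 FPKM in replicates 2 and 3 and 3.36 in replicate 1. With the last included, the SD of the ND group (46.6) was nearly as large as its mean (55.8), and the log2 fold change of HFD against ND was 0.96 ± 1.18 (limma adjusted p = 0.670). Without it the sign turned, to -0.46 ± 0.17 (limma adjusted p = 0.140), and all HFD libraries lay below both remaining ND libraries. An antisense gene, Gm44079, overlaps Pparg, and the library kit keeps no strand, so reads of the pair cannot be told apart where they overlap.

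Ppara, the fatty acid sensor best known from liver (ENSMUSG00000022383, chr15:85734983-85802819), was scarce in all libraries. It was 1.39, 1.95 and 0.758 FPKM in the HFD group, 1.31, 2.15 and 2.25 in the GT group and 1.27, 0.810 and 0.938 in the TJ group. Each GT library exceeded each TJ library, while the HFD libraries overlapped with both. TJ against GT gave a log2 fold change of -0.52 ± 0.19 (limma adjusted p = 0.167) and TJ against HFD one of -0.21 ± 0.27 (limma adjusted p = 0.561), which turned to 0.10 under quantile normalization. In the ND group it was 0.389, 1.92 and 3.94 FPKM, and the log2 fold change of HFD against ND was -0.23 ± 0.55 (limma adjusted p = 0.825). It was -0.72 ± 0.39 without ND replicate 1 (limma adjusted p = 0.293) and turned to 0.20 ± 0.53 without ND replicate 3 (limma adjusted p = 0.814).

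Ppard, the ubiquitous member of the family (ENSMUSG00000002250, chr17:28232700-28301474), had lower values in TJ than in HFD. Its level was 10.97, 14.9 and 11.1 FPKM in the HFD group, 8.77, 10.5 and 12.3 in the GT group and 7.46, 8.79 and 8.71 in the TJ group. All TJ libraries lay below all HFD libraries, and the GT libraries overlapped with the HFD and TJ groups. TJ against HFD gave -0.51 ± 0.16 on the log2 scale (limma adjusted p = 0.0574) and GT against HFD gave -0.21 ± 0.16 (limma adjusted p = 0.416). The ND libraries, at 3.67, 8.85 and 16.2 FPKM, spanned the whole range of the others. The log2 fold change of HFD against ND was 0.51 ± 0.52 (limma adjusted p = 0.612) and 0.02 ± 0.28 without ND replicate 1 (limma adjusted p = 0.965).

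Rxra, the shared partner of the PPARs (ENSMUSG00000015846, chr2:27676440-27762957), was lowest in the HFD group apart from ND replicate 1. It was 38.2, 45.6 and 43.8 FPKM in HFD, 52.0, 66.3 and 78.6 in GT and 55.2, 58.4 and 49.4 in TJ. No GT or TJ library fell within the HFD range. The log2 fold change was 0.60 ± 0.16 for GT (limma adjusted p = 0.0751) and 0.35 ± 0.13 for TJ (limma adjusted p = 0.1003), so neither passed. Without GT replicate 1 the GT value was 0.75 with an adjusted p of 0.0355 by limma, which would be a call. It was called in only 1 of 14 alternatives, and leaving out that library raised the calls over all genes from 464 to 1107. ND replicates 2 and 3 held 54.1 and 69.5 FPKM, both above the HFD libraries, and ND replicate 1 held 26.3. Without it HFD against ND was -0.52 ± 0.16 (limma adjusted p = 0.0890), with it -0.12 ± 0.41 (limma adjusted p = 0.878).

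**Figure D2:**
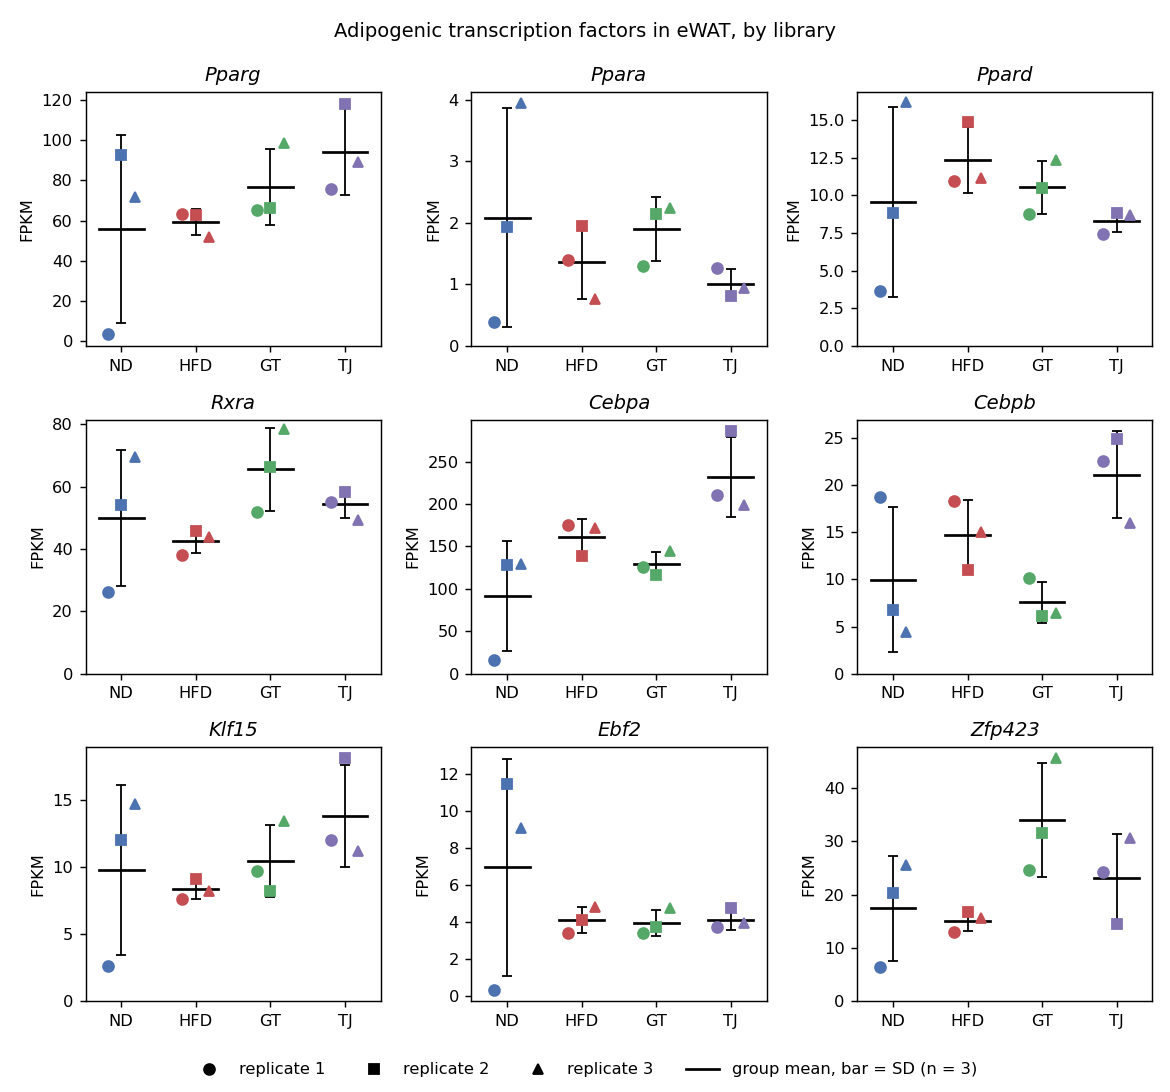
FPKM of each of the 9 factors by diet group, 1 point per library (circle, square and triangle for replicates 1 to 3), with the group mean (line) and SD (bar, n = 3). Each panel has its own linear axis. The TJ libraries of Cebpa (199 to 286) lie above all other libraries, the GT libraries of Zfp423 (24.7 to 45.7) lie above all HFD libraries (13.0 to 16.7), and ND replicate 1 is the lowest point in 8 of the panels, Cebpb being the exception.

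Cebpa, which holds the mature adipocyte state together with Pparg (ENSMUSG00000034957, chr7:35119293-35121928, plus strand), was higher in every TJ library than in any other. It was 211, 286 and 199 FPKM in TJ, 175, 138 and 172 in HFD and 126, 117 and 144 in GT. The GT and HFD ranges overlapped between 138 and 144 FPKM, and the TJ range met neither. The means were 232 ± 47.3, 162 ± 20.2 and 129 ± 14.1 FPKM (SD, n = 3 each).

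Tests of these differences did not pass the threshold. The log2 fold change of Cebpa was 0.51 ± 0.19 for TJ against HFD (limma adjusted p = 0.0891), -0.32 ± 0.13 for GT against HFD (limma adjusted p = 0.164) and 0.83 ± 0.19 for TJ against GT (limma adjusted p = 0.101). The promoter shown above, with its TATAAA at -30, belongs to this gene, whose antisense neighbour Gm45091 overlaps it. ND replicates 2 and 3 were close, at 128 and 129 FPKM, below each HFD library, while ND replicate 1 was at 16.6. HFD against ND came to 1.28 ± 0.83 with that library (limma adjusted p = 0.502) and to 0.32 ± 0.14 without it (limma adjusted p = 0.209).

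Cebpb, the early factor of the relay and also an activator in macrophages (ENSMUSG00000056501, chr2:167688915-167690418, plus strand), differed in mean most between TJ and GT among the 3 groups on a high-fat diet. It was 22.5, 24.9 and 15.9 FPKM in TJ, 18.3, 10.98 and 15.0 in HFD and 10.1, 6.15 and 6.44 in GT. Every GT library was below every HFD library and every TJ library, while the TJ and HFD ranges overlapped. Its mean in the TJ group was 2.80 times that in the GT group.

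For Cebpb, the log2 fold change of TJ against GT was 1.38 ± 0.23 (limma adjusted p = 0.0734), with an adjusted p of 0.0495 when TJ replicate 3 was left out and 0.0641 to 0.777 under the other alternatives. GT against HFD was -0.88 ± 0.23 (limma adjusted p = 0.0696). It became a call in only 1 of 14 alternatives, at -1.08 without GT replicate 1 (limma adjusted p = 0.0391). TJ against HFD was 0.50 ± 0.23 (limma adjusted p = 0.149). In ND replicates 2 and 3 the level was 6.79 and 4.402 FPKM, below all HFD libraries, and in ND replicate 1 it was 18.8, the highest of the HFD and ND libraries together. Without ND replicate 1 Cebpb was called higher in HFD than in ND, by 1.25 ± 0.27 (limma adjusted p = 0.0381). With it the value was 0.72 ± 0.54 (limma adjusted p = 0.529).

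Beside this result of Cebpb, the macrophage markers are given. Without ND replicate 1, 12 of 12 were called higher in HFD than in ND, as were 11.0% of all genes, and in ND their sum was 601 and 744 FPKM in replicates 3 and 2, and none stood at 0 in any library. With ND replicate 1, 7 of 12 were called higher, as were 1.73% of all genes. For GT against HFD, 0 of 12 were called, where 1.81% of all genes were called lower, all 12 had an unadjusted p under 0.05 in limma and their median log2 fold change was -0.996. In TJ against HFD, 9 of 12 were called lower, as were 11.1% of all genes, the opposite sign to the value of Cebpb. The part of macrophages in the Cebpb values was not tested. Cebpb is a gene of 1 exon, and Tmem189 overlaps it on the other strand at 75.8 to 95.1 FPKM in HFD, 58.0 to 84.3 in GT, 36.6 to 65.5 in TJ and 24.5 to 83.2 in ND, so shared reads cannot be assigned with certainty.

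Klf15 (ENSMUSG00000030087, chr6:90462576-90475238), which switches on gluconeogenic and amino acid genes, had its highest mean of the 3 groups on a high-fat diet in TJ. That mean was 13.8 FPKM, close to the 13.4 of ND without replicate 1. It was 12.1, 18.2 and 11.2 FPKM in TJ, 7.67, 9.13 and 8.26 in HFD and 9.74, 8.25 and 13.4 in GT. The TJ libraries all exceeded the HFD libraries and overlapped with the GT libraries. TJ against HFD was 0.64 ± 0.19 (limma adjusted p = 0.0556), close to the threshold, and 0.76 with an adjusted p of 0.0405 by limma when TJ replicate 3 was left out. It was called in 3 of 14 alternatives. TJ against GT was 0.37 ± 0.23 (limma adjusted p = 0.330) and GT against HFD 0.27 ± 0.17 (limma adjusted p = 0.325). Klf15 held 12.0 and 14.7 FPKM in ND replicates 2 and 3, more than in any HFD library, and 2.67 in ND replicate 1. HFD against ND was -0.62 ± 0.16 without ND replicate 1 (limma adjusted p = 0.0574) and 0.04 ± 0.60 with it (limma adjusted p = 0.978).

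Ebf2, the factor of beige and brown fat (ENSMUSG00000022053, chr14:67233292-67430918), had overlapping ranges in the 3 groups on a high-fat diet. It was 3.44, 4.11 and 4.84 FPKM in HFD, 3.40, 3.72 and 4.77 in GT and 3.71, 4.75 and 3.94 in TJ. These ranges lay almost on top of each other, and the log2 fold changes were -0.05 ± 0.16 for GT and 0.01 ± 0.17 for TJ against HFD (limma adjusted p = 0.858 and 0.981). The sign of the GT value turned under both other scalings, to 0.06 and 0.17. ND replicates 2 and 3 stood clear of them, at 11.5 and 9.07 FPKM, and ND replicate 1 was at 0.362. Without that library Ebf2 was called lower in HFD than in ND, with a log2 fold change of -1.14 ± 0.20 (limma adjusted p = 0.0208), and with it the value was -0.12 ± 0.88 (limma adjusted p = 0.945). This call, like that of Cebpb, rests on 2 ND libraries. The summed markers of progenitors and stroma went the opposite way, at 1245 and 1105 FPKM in ND replicates 2 and 3 (98.9 in ND replicate 1) against 1911 to 2043 in HFD. Without ND replicate 1, 5 of these 9 markers were called higher in HFD and 0 lower, where 11.0% and 4.34% of all genes were. With it 0 of 9 were called, against 1.77% of all genes (4 at an unadjusted p under 0.05 in limma). Their part in the values of Ebf2 was not tested.

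Zfp423, the progenitor factor (ENSMUSG00000045333, chr8:87661810-87959595, minus strand), was the one member called in a comparison of complete groups. It was 24.7, 31.6 and 45.7 FPKM in GT and 13.0, 16.7 and 15.5 in HFD, with no overlap. The means were 34.0 ± 10.7 and 15.1 ± 1.92 FPKM (SD, n = 3 each), a ratio of 2.25, and Zfp423 rose by 1.08 ± 0.22 on the log2 scale (limma adjusted p = 0.0482). This call was a narrow one. The adjusted p by limma was 0.0797, 0.119 and 0.158 without HFD replicates 1, 2 and 3, 0.0317, 0.185 and 0.0864 without GT replicates 1, 2 and 3, and 0.0955 with the replicate number as a block, while the log2 fold change stayed between 0.85 and 1.29.

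The TJ libraries of Zfp423, at 24.2, 14.5 and 30.7 FPKM, overlapped with both of these groups. TJ against HFD was 0.53 ± 0.26 (limma adjusted p = 0.168), and it was 0.82 with an adjusted p of 0.0184 by limma without TJ replicate 2, the lowest of the 3. It was called in only 1 of 14 alternatives, and without TJ replicate 3 it was 0.31 (limma adjusted p = 0.354). In ND replicates 2 and 3 Zfp423 was at 20.2 and 25.6 FPKM, more than in any HFD library, and in ND replicate 1 it was at 6.42. HFD against ND was -0.57 ± 0.17 without ND replicate 1 (limma adjusted p = 0.0888) and -0.01 ± 0.53 with it (limma adjusted p = 0.991). The summed markers of progenitors and stroma were lower in every GT and TJ library than in HFD, and none stood at 0 in any library. Of these markers 3 of 9 were called lower in GT against HFD, as were 1.81% of all genes, and 5 of 9 in TJ against HFD, as were 11.1%. Their part in the values of Zfp423 was not tested.

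**Figure D3:**
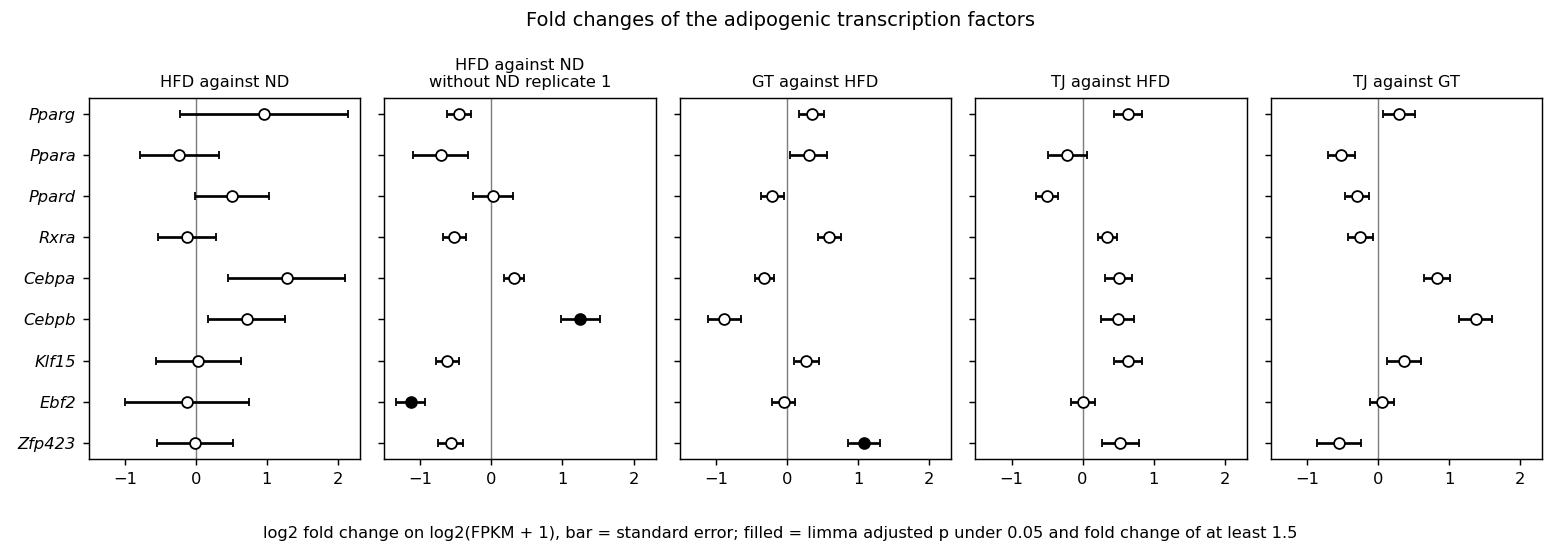
Log2 fold changes on the log2(FPKM + 1) scale of the 9 factors in each comparison, with the SE from limma as a bar. Filled points are called. Cebpb (1.25) and Ebf2 (-1.14) are filled in HFD against ND without ND replicate 1, and Zfp423 (1.08) is filled in GT against HFD, and the SE of HFD against ND narrows once ND replicate 1 is left out (Pparg, 1.18 to 0.17).

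The members were then counted beside all genes tested. For HFD against ND, 0 of 9 members were called, against 1.77% of the 14430 genes tested (255 genes, 1.73% higher and 0.0416% lower in HFD), and 0 of 9 had an unadjusted p under 0.05 in limma, as had 1672 genes. Cebpa alone was higher in every HFD library and no member was lower, where 20.5% and 5.89% of all genes were. With ND replicate 1 left out, 2 of 9 were called, against 15.4% of 13661 genes, with Cebpb higher, as were 11.0% of all genes, and Ebf2 lower, as were 4.34%, 6 of 9 had an unadjusted p under 0.05, as had 4207 of the genes, and the median log2 fold change of the members was -0.52, beside -0.02 over all genes. In that comparison 5 of 9 members were lower and 2 of 9 higher in every HFD library, where 19.2% and 28.0% of all genes were. Deviations of same-numbered ND and HFD libraries from their group means correlated at 0.55, 0.34 and 0.12 for replicates 1, 2 and 3. HFD replicate 3 correlated more closely with ND replicate 2 (0.63), and no label names a pairing. With the number as a block limma called 0 genes and 0 members in the complete groups, with 2239 genes at an unadjusted p under 0.05. Leaving out HFD replicate 1, 2 or 3 also gave 0 genes (843 to 982 at an unadjusted p under 0.05), and leaving out ND replicate 2 or 3 gave 24 or 23.

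For GT against HFD, 1 of 9 members was called, against 3.63% of 12766 genes (233 or 1.83% higher and 231 or 1.81% lower), and 4 of 9 had an unadjusted p under 0.05 in limma, as had 3744 of the genes. By library, 3 of 9 were higher and 1 of 9 lower in every GT library, against 12.3% and 24.4% of all genes. The median of the members was 0.27 and that of all genes -0.12. Median-of-ratios scaling moved the latter to -0.01, with 400 genes called higher and 145 lower, and quantile normalization moved it to 0.03, with 405 and 162. The count of genes called ran from 4 to 66 when HFD replicate 1, 2 or 3 or GT replicate 2 or 3 was left out and was 1107 without GT replicate 1, when 3 members were called.

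For TJ against HFD, 0 of 9 members were called, against 18.5% of 12807 genes (7.41% higher and 11.1% lower), and 5 of 9 had an unadjusted p under 0.05 in limma, as had 5299 of the genes. All 4 members that were higher in every TJ library (Pparg, Rxra, Cebpa and Klf15, as were 20.1% of all genes) and the 1 that was lower (Ppard, as were 31.4% of all genes) were among these 5. Both measures use the same libraries, so their match is no further support. The median of the members was 0.50 and that of all genes -0.14. Scaling turned the balance of the calls from 949 higher and 1417 lower to 1285 and 1085 (median of ratios) or 1543 and 1151 (quantile). The count of genes called went from 2366 to 0 when HFD replicate 1, 2 or 3 or TJ replicate 1 was left out, with 3732 to 4735 genes then at an unadjusted p under 0.05, so that no call of TJ against HFD named here was made without any 1 of these 4 libraries. Under other settings 1 or 2 members passed: Pparg and Klf15 with a filter at 5 FPKM, Pparg (0.78) with median-of-ratios scaling and Klf15 (0.83) with quantile normalization.

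For TJ against GT, 0 of 9 members were called, against 0.148% of 12187 genes (17 or 0.139% higher and 1 or 0.00821% lower), and 3 of 9 had an unadjusted p under 0.05, as had 2996 of the genes. Cebpa and Cebpb were higher and Ppara lower in every TJ library, against 19.5% and 14.9% of all genes. The genes called were 14 higher and 3 lower with median-of-ratios scaling and 23 and 6 with quantile normalization. They numbered 4 to 6 without GT replicate 1, 2 or 3 or TJ replicate 1, and 81 and 75 when TJ replicate 2 and TJ replicate 3 were left out in turn, Cebpb being called in the latter case. The comparisons with HFD use the same 3 HFD libraries, so their values are given side by side and no overlap between them is counted.

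A ratio of 2 factors in the same library does not depend on how that library was scaled. Ppard relative to Pparg was 0.173, 0.237 and 0.215 in the HFD libraries, 0.135, 0.158 and 0.125 in the GT libraries and 0.0986, 0.0743 and 0.0977 in the TJ libraries. The 3 groups did not overlap, HFD being highest and TJ lowest. On the log2 scale the difference was -0.58 for GT and -1.21 for TJ against HFD and -0.63 for TJ against GT, each with p = 0.1 in a two-sided exact permutation test, the smallest p that 3 libraries against 3 allow, and 0.32 after adjustment over the 16 ratio tests made.

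Ppara relative to Pparg was 0.0168, 0.00685 and 0.0105 in the TJ libraries and 0.02004 to 0.0323 in the GT libraries, again without overlap (log2 difference -1.20, exact permutation p = 0.1). The HFD libraries, at 0.0146 to 0.0311, overlapped with both, with a log2 difference of TJ against HFD of -1.02 (exact permutation p = 0.2). Rxra relative to Pparg was 0.494 to 0.729 in TJ and 0.798 to 0.997 in GT (log2 difference -0.56, exact permutation p = 0.1). In HFD the ratio was 0.603 to 0.845.

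Cebpb relative to Cebpa, the early against the late C/EBP, was 0.0793 to 0.104 in HFD, 0.0446 to 0.0800 in GT and 0.0800 to 0.107 in TJ. Although both genes had higher means in TJ than in HFD, their ratio differed by 0.01 on the log2 scale (exact permutation p = 0.8). GT against HFD differed by -0.65 and TJ against GT by 0.66 (exact permutation p = 0.2 each). In ND replicate 1 the ratios were unlike all others, at 1.13 for Cebpb to Cebpa, 1.09 for Ppard to Pparg and 7.84 for Rxra to Pparg, against 0.0340 and 0.0528, 0.0958 and 0.226, and 0.585 and 0.972 in the other ND libraries. On the log2 scale HFD against ND differed by -0.50 for Cebpb to Cebpa, -0.47 for Ppard to Pparg, -1.20 for Rxra to Pparg and -1.24 for Ppara to Pparg (exact permutation p = 1, 0.8, 0.5 and 0.3). Without ND replicate 1 these became 1.08, 0.49, -0.07 and -0.65 (exact permutation p = 0.2, 0.6, 1 and 0.6), where 3 libraries against 2 allow no two-sided p below 0.2. None of the 16 adjusted p values was under 0.32.

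**Figure D4:**
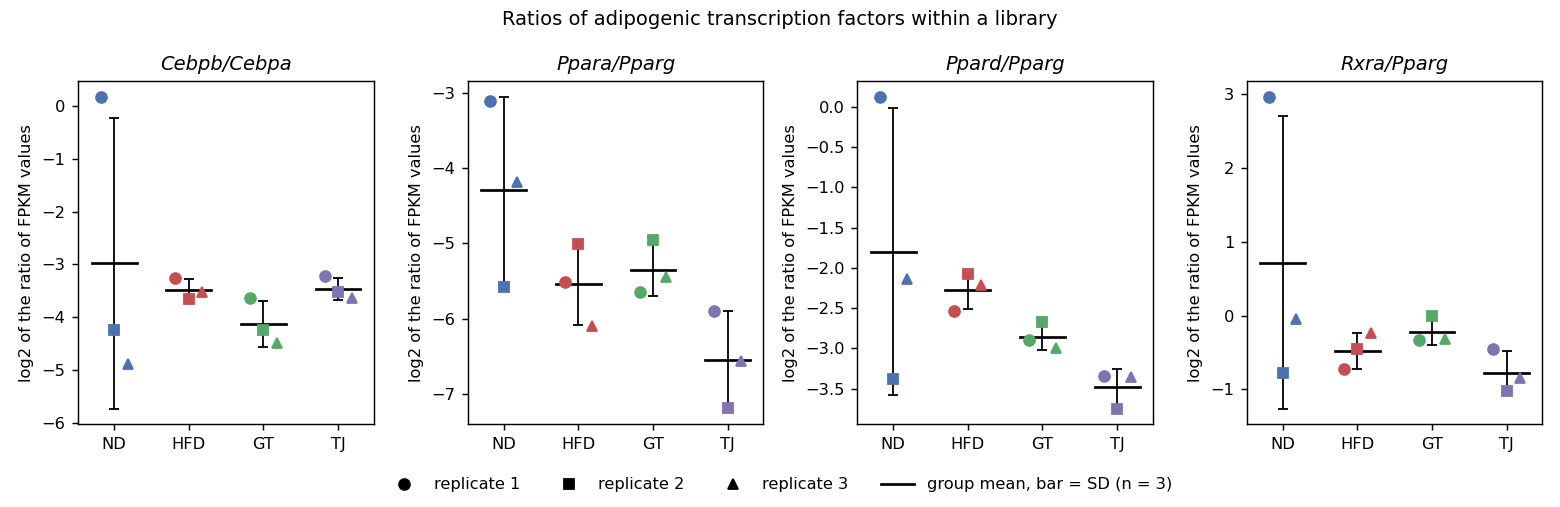
Log2 of the ratio of the FPKM values of 2 factors within a library, 1 point per library, with the group mean (line) and SD (bar, n = 3). The Ppard to Pparg ratio falls into 3 separate ranges for HFD, GT and TJ, and ND replicate 1 is the highest point in each panel.

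Target genes were examined next. The list of 20 genes known as targets of PPARγ and C/EBPα, all tested, covers lipid droplet proteins, adipokines and enzymes of lipid storage. Its sum over a library was 27575 to 29958 FPKM in HFD, 38706 to 51100 in GT and 46549 to 82157 in TJ, without overlap between HFD and the others. All 7 adipocyte markers are among these genes, so the sum of those markers is not a separate measurement. Fabp4 alone averaged 13385 FPKM in HFD, 17482 in GT and 32918 in TJ.

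In TJ against HFD, 12 of the 20 targets were called higher and 0 lower, where 7.41% of all genes were called higher, with a median log2 fold change of 0.81. Cfd, which encodes the adipokine adipsin, rose most (3.36 ± 0.61, limma adjusted p = 0.0248), from 251 to 349 FPKM in HFD to 1668 to 9296 in TJ. Adipoq, the gene of adiponectin, rose by 1.46 ± 0.22 and Fabp4, the fatty acid binding protein, by 1.22 ± 0.31 (limma adjusted p = 0.0220 and 0.0390). Plin1, the coat protein of lipid droplets, rose by 0.79 ± 0.17 (limma adjusted p = 0.0293). Not every target was higher, since Lep, the gene of leptin, was at -0.96 (limma adjusted p = 0.111), Cd36, a fatty acid transporter, at -0.51 (0.113) and Lpl, lipoprotein lipase, at -0.46 (0.279). The count of calls was 0 without HFD replicate 1, 2 or 3 or TJ replicate 1, with medians of 0.77 to 0.85, and 8 under quantile normalization.

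In GT against HFD, 9 of the 20 targets were called higher and 0 lower, where 1.83% of all genes were called higher, with a median of 0.77. Cfd again had the largest value (1.92 ± 0.27, limma adjusted p = 0.0338), Pck1, the enzyme of glyceroneogenesis, rose by 1.53 ± 0.28 (limma adjusted p = 0.0411) and Plin1 by 0.97 ± 0.17 (limma adjusted p = 0.0379). Adipoq (0.76, limma adjusted p = 0.0673), Fabp4 (0.39, 0.0772), Lpl (0.36, 0.291) and Cd36 (-0.11, 0.555) were not called. The count was 0 without HFD replicate 2 or 3 or GT replicate 2 or 3, 1 without HFD replicate 1 and 13 without GT replicate 1, with medians of 0.62 to 0.88. TJ against GT called 0 of 20, against 0.148% of all genes, with a median of -0.07, 8 at an unadjusted p under 0.05 in limma, and Cfd highest at 1.44.

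Against ND without ND replicate 1, 12 of the 20 targets were called lower in HFD and 3 higher, where 4.34% and 11.0% of all genes were, with a median of -0.90. Cfd fell by 3.63 on the log2 scale, Pck1 by 3.05, Adipoq by 1.19 and Plin1 by 1.06 (limma adjusted p = 0.000904, 0.000735, 0.0219 and 0.00462). The 3 that rose were Lep (1.76), the glycerol phosphate dehydrogenase Gpd1 (1.33) and Agpat2 (0.99), an enzyme of triglyceride synthesis. Lpl (-0.55), Fabp4 (-0.38) and Cd36 (0.15) were not called. With ND replicate 1 only Cfd was called (-3.52, limma adjusted p = 0.0208), where 0.0416% of all genes were called lower, and the median was 0.19, Lep being highest at 3.48.

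The targets of PPARα and PPARδ, a list of 22 genes, most of them of fatty acid oxidation, of which 20 were tested, had 2 genes called higher and 4 lower in TJ against HFD, where 7.41% and 11.1% of all genes were. Ucp3, a mitochondrial carrier (1.26), was called higher. Fabp3, the heart type fatty acid binding protein (-1.49), Cpt1b, the muscle type carnitine palmitoyltransferase (-1.23), the lipid droplet gene Plin2 (-1.01) and Acot1 (-0.80) were called lower, and the median was 0.34, beside -0.14 over all genes. Fabp3 passed the filter on low values only through the HFD group (mean 2.57 FPKM against 0.238 in TJ and 0.354 in GT), so its call is no more than a description. In GT against HFD, Ucp3 (1.07) and Fgf21, a fasting hormone (0.96), were called higher and 0 lower, where 1.83% and 1.81% of all genes were (median 0.23), with Fabp3 lowest at -1.39 (limma adjusted p = 0.0505). Fgf21 in turn passed that filter only through the GT group (mean 2.50 FPKM against 0.804 in HFD). Without ND replicate 1, HFD exceeded ND in Plin2 (2.26), Acaa1b (0.79) and Cpt1a (0.65) and was lower in Vnn1 (-2.19) and Ucp3 (-1.54), 3 and 2 of 20 where 11.0% and 4.34% of all genes were called, with a median of -0.04. With ND replicate 1, 0 were called, against 1.77% of all genes (2 at an unadjusted p under 0.05), with values from -1.21 (Fabp3) to 2.96 (Plin2) and a median of 0.74, and TJ against GT also called 0, against 0.148% (4 at an unadjusted p under 0.05), from -0.75 (Cpt1a) to 0.59 (Cyp4b1), with a median of 0.06.

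**Figure D5:**
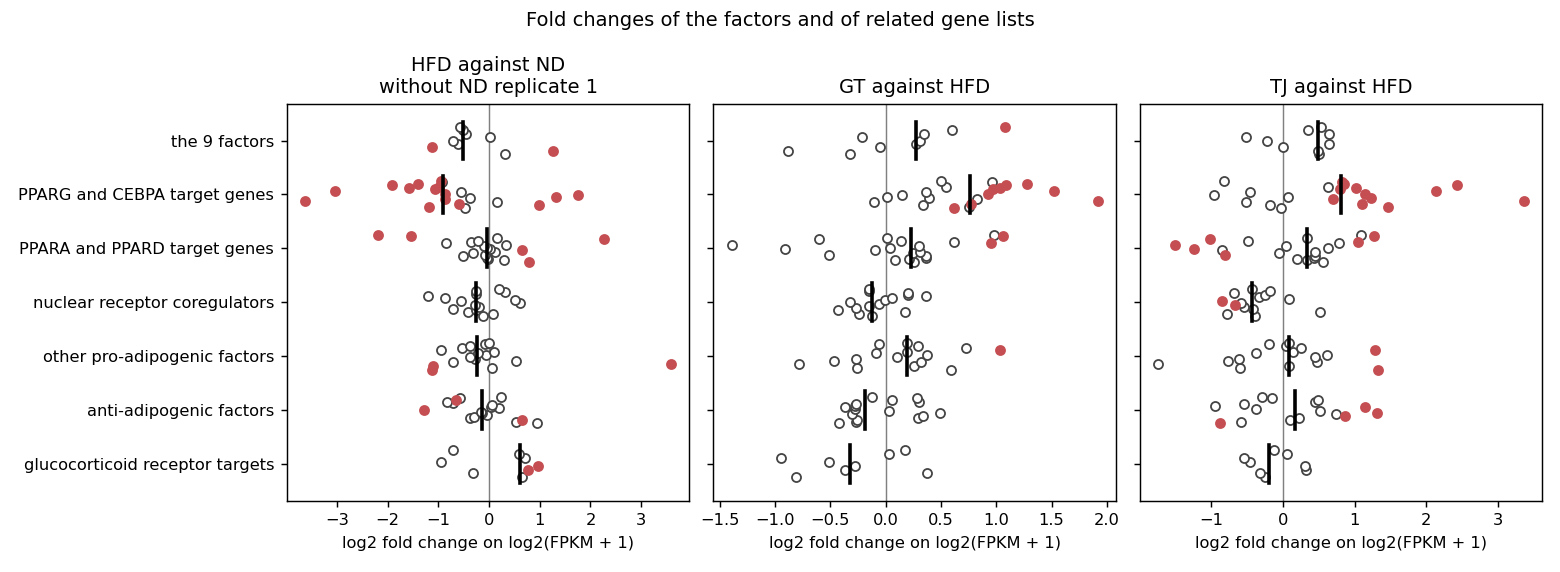
Log2 fold changes on the log2(FPKM + 1) scale of the 9 factors and of the genes of 6 related lists in 3 comparisons, 1 point per gene, filled red where called and with the list's median as a bar. From left to right these are HFD against ND without ND replicate 1, GT against HFD and TJ against HFD. The PPARG and CEBPA targets have medians of -0.90, 0.77 and 0.81 in that order, and those of the 9 factors are -0.52, 0.27 and 0.50. With ND replicate 1 the first of each turns positive, to 0.04 for the factors.

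Coregulators of nuclear receptors, made a list of 16. In TJ against HFD, 14 were tested and the coactivators Ncoa3 (-0.85) and Ncoa1 (-0.67) were called lower, as were 11.1% of all genes, with a median of -0.42 and Hdac3 highest at 0.53 (limma adjusted p = 0.0510). The GT group against HFD gave 0 calls of 15, against 3.63% of all genes (median -0.12, from Med1 at -0.43 to Nrip1 at 0.37, 1 with an unadjusted p under 0.05), and in TJ against GT 0 of 14, against 0.148% (median -0.34, from Prdm16 at -0.88 to Hdac3 at 0.35, 6 with an unadjusted p under 0.05). In HFD against ND 0 of 16 were called, with and without ND replicate 1, against 1.77% and 15.4% of all genes (medians 0.09 and -0.25, 0 and 5 with an unadjusted p under 0.05), and Ppargc1a, the coactivator of mitochondrial genes, was lowest both times (-0.71 and -1.21), with Ncoa3 highest (0.98 and 0.62). Ppargc1a passed the filter on low values only through the ND group (mean 2.02 FPKM, or 2.85 without ND replicate 1, against 0.666 in HFD).

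Among 17 other factors that favour adipocyte formation, of which 16 were tested in TJ against HFD, Rxrg, a further RXR gene (1.28), and Bmp4, a signal that commits progenitors (1.33), were called higher, as were 7.41% of all genes, with a median of 0.09 and Egr2 lowest at -1.74 (limma adjusted p = 0.0660). Rxrg (1.04) was also called higher in GT against HFD, the single call of 16, where 1.83% of all genes were called higher (median 0.20), Egr2 being lowest (-0.78). Without ND replicate 1, Egr2 was called higher in HFD (3.59), and Bmp4 (-1.14) and Ebf1 (-1.11), the closest relative of Ebf2 in the list, were called lower, where 11.0% and 4.34% of all genes were, with a median of -0.24. Egr2 passed the filter there only through the HFD group (mean 21.1 FPKM against 0.820 in ND), so its call is a description. With it, 0 of 17 were called, against 1.77% of all genes (median 0.23, from Klf5 at -1.22 to Egr2 at 2.76, 1 with an unadjusted p under 0.05), and Klf5 passed only through ND (mean 2.63 FPKM against 0.148 in HFD). TJ against GT called 0 of 16, against 0.148% (median -0.15, from Egr2 at -0.95 to Bmp4 at 0.74, 1 with an unadjusted p under 0.05).

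Of 20 factors that oppose adipocyte formation, 16 were tested in TJ against HFD. Id3 (1.32), an inhibitor of helix-loop-helix factors, Klf2 (1.15) and Gata2 (0.87) were called higher and Bhlhe40 (-0.88) lower, where 7.41% and 11.1% of all genes were, with a median of 0.16 and Klf3 lowest at -0.95 (limma adjusted p = 0.0931). The 7 endothelial markers summed to 490 to 729 FPKM in TJ and 295 to 333 in HFD, with 3 of 7 called higher and 0 lower, and their part in the values of Id3, Klf2 and Gata2 was not tested. For the GT group against HFD 0 of 16 were called, against 3.63% of all genes (median -0.19, from Bhlhe40 at -0.42 to Id3 at 0.49, 6 with an unadjusted p under 0.05), and in TJ against GT 0 of 16, against 0.148% (median 0.04, from Klf3 at -0.67 to Klf2 at 1.52, 6 with an unadjusted p under 0.05). Leaving out ND replicate 1, the stress factor Ddit3 (0.64) was called higher and Irf4 (-1.28) and Tcf7l2 (-0.65) lower in HFD, where 11.0% and 4.34% of all genes were, with a median of -0.13 and Bhlhe40 highest at 0.94. With it, 0 of 18 were called, against 1.77% (median -0.02, from Sox9 at -1.55 to Ctnnb1 at 1.68, 2 with an unadjusted p under 0.05), and Sox9 averaged 7.22 FPKM in ND but 0.996 in HFD, just under the filter.

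The 8 targets of the glucocorticoid receptor, which bears on Klf15 and Cebpb, held no call in GT against HFD (median -0.32, from Sgk1 at -0.95 to Fkbp5 at 0.37, 3 with an unadjusted p under 0.05), TJ against HFD (median -0.19, from Sgk1 at -0.55 to Mt1 at 0.32, 0 with an unadjusted p under 0.05) or TJ against GT (median 0.22, from Fkbp5 at -0.68 to Mt1 at 0.69, 4 with an unadjusted p under 0.05). When ND replicate 1 was left out, the metallothionein genes Mt2 (0.97) and Mt1 (0.77) were called higher in HFD, as were 11.0% of all genes, with a median of 0.61 and Per1 lowest at -0.95. With it, 0 of 8 were called, against 1.77% of all genes (median 0.02, from Per1 at -0.99 to Sgk1 at 1.77, 0 with an unadjusted p under 0.05). All genes were called at 3.63%, 18.5% and 0.148% in the 3 comparisons between groups on a high-fat diet, so that 0 of 8 is read as no result.

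Last, genes with a pattern like that of Pparg and Cebpa were looked for by the Pearson correlation of log2(FPKM + 1) over the 12 libraries, among 13935 genes. For Pparg the 5 highest were Xbp1 (0.994), Eepd1 (0.988), Pvr (0.988), Fbln5 (0.988) and Cpq (0.987). For Cebpa they were Slc25a20 (0.985), Camk1 (0.984), Nudt16 (0.980), Hsd17b11 (0.980) and Cnn3 (0.980). These values lean on ND replicate 1, in which Pparg and Cebpa were lowest, and the libraries also share their group and cell makeup. Without it the 5 genes of Pparg had correlations of 0.825 (Cpq, at rank 229) to 0.919 (Xbp1, at rank 13), and those of Cebpa 0.852 (Cnn3, at rank 327) to 0.893 (Slc25a20, at rank 117). None of the 10 was among the 5 highest over the 11 libraries, which were Tcta (0.969), Rab34 (0.949), Apopt1 (0.946), Popdc2 (0.943) and Elmod3 (0.942) for Pparg and Gm17084 (0.981), Mrps34 (0.964), Rps19bp1 (0.963), Cdkn1c (0.962) and Gm1673 (0.960) for Cebpa. The correlation between Pparg and Cebpa went from 0.938 over 12 libraries to 0.447 over 11.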

How the data were processed

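Per the labels and the methods, poly(A) libraries of eWAT RNA were made with a kit that keeps no strand. Base calls came from CASAVA 1.8.2, reads were mapped with STAR (2.4.0 in the submitters' processing notes), and the authors computed the deposited FPKM values with Cufflinks 2.1.1 on Ensembl release 72, masking noncoding regions and correcting for multireads and fragment bias. The methods name the human genome, while all identifiers are mouse. GENCODE release M21 named 22671 of 23474 genes and left 803 without a symbol.

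FPKM values are no counts, so limma 3.58.1 (R 4.3.3, eBayes with a trend) was fitted to log2(FPKM + 1) of the 6 libraries of each comparison, without covariates, for genes averaging 1 FPKM or more. Benjamini-Hochberg adjustment covered all genes tested. A call needed a 1.5-fold difference or more, besides an adjusted p below 0.05. Of the 9 factors, all 9 passed the filter in each comparison. Ratios were compared with two-sided exact permutation tests (scipy 1.17.1). The pipeline was tested on simulated data. No library values were identical.

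The members and gene lists were chosen with earlier results of these data known. Named are all members and, of each list, the extremes, all calls up to 5, and Adipoq, Fabp4, Plin1, Cd36 and Lpl. Other called genes that are named were chosen after their values were seen, and not every called gene is named. Some genes counted in the lists are not reported here by name. For replicate numbers 1 to 3, deviations from the group means correlated at 0.55, 0.34 and 0.12 between HFD and ND (HFD replicate 3 with ND replicate 2 at 0.63), and below 0.1 for at least 1 number in every other comparison. These correlations are the only source for a pairing. Alternatives were quantile normalization or median-of-ratios scaling, a filter at 5 FPKM or none, 0.1 as pseudocount, eBayes with no trend, one fit of all 12 libraries, the replicate block, and each library left out.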

Additional observations from a re-analysis of the deposited data

Results flagged for a closer look

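Cebpa and Cebpb were flagged because every TJ library was above the HFD mean and every GT library below it. This rule already separates TJ from GT, so that separation is no further support. Opposite changes against HFD were not established. For Cebpa the GT and HFD ranges overlapped (limma adjusted p = 0.164), and for Cebpb the TJ and HFD ranges did (limma adjusted p = 0.149). The log2 fold change of TJ against GT, which is the difference of the 2 effects, was 0.83 for Cebpa (limma adjusted p = 0.101, 0.0539 to 1.0 under the alternatives) and 1.38 for Cebpb (limma adjusted p = 0.0734, 0.0495 to 0.777 under the alternatives). Neither passed the threshold. The summed macrophage markers were 1124 to 3039 FPKM in TJ and 1701 to 4060 in GT, and their part in these values was not tested. In these groups of 3, single outlying libraries were not tested for.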

How the results depend on the processing

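Genes called in HFD against ND, 255 in all, numbered 126 with a pseudocount of 0.1, 1136 with all 12 libraries in one fit and 0 with the replicate block, and 0 to 2098 when a library was left out. In GT against HFD, 464 became 5 with no filter, 1 with all 12 libraries, 5 with the block and 67 without the trend, each with 0 members called, and 4 to 1107 when a library was left out. In TJ against HFD, 2366 became 382 with no filter, 0 with all 12 libraries (2104 at an unadjusted p under 0.05 in limma), 1198 with the block and 0 to 3412 when a library was left out. Members called there were 2 with a filter at 5 FPKM and 1 with either scaling. In TJ against GT, 18 became 11 with a pseudocount of 0.1, 6 with no filter or a filter at 5 FPKM, 29 with quantile normalization, 2 with all 12 libraries, and 4 to 81 when a library was left out. Members called ranged from 0 to 2, 0 to 3, 0 to 1 and 0 to 1 in the same order of comparisons when a library was left out. The cause was not tested. In the complete groups the replicate block changed no other call of a member, and it was not run with ND replicate 1 left out.

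Some directions turned. HFD against ND gave -0.0947 and -0.0832 for Klf15 with median-of-ratios and quantile scaling, and 0.20 for Ebf2 and 0.0033 for Zfp423 with a pseudocount of 0.1. GT against HFD gave 0.0570 and 0.17 for Ebf2 with these scalings, and TJ against HFD 0.10 for Ppara with the latter. With 1 added to both values, the log2 ratio of Cebpb to Cebpa in TJ against HFD was -0.0122 and that of Ppara to Pparg in GT against HFD -0.0363. With a library left out, HFD against ND ran from -0.46 to 1.76 for Pparg, -0.72 to 0.20 for Ppara, -0.52 to 0.16 for Rxra, -0.62 to 0.43 for Klf15, -1.14 to 0.46 for Ebf2 and -0.57 to 0.35 for Zfp423, -1.45 to 1.08 for the log2 ratio of Cebpb to Cebpa and -1.27 to 0.49 for that of Ppard to Pparg. Ebf2 ran from -0.16 to 0.0503 in GT against HFD, -0.0942 to 0.10 in TJ against HFD and -0.0303 to 0.17 in TJ against GT, the ratio of Ppara to Pparg from -0.0906 to 0.45 in GT against HFD, and that of Cebpb to Cebpa from -0.10 to 0.12 in TJ against HFD. Of the fold changes of members under all alternatives, 454 kept their direction and their side of the threshold, 23 changed direction, 11 newly passed the threshold and 9 no longer did. Depth is known only roughly, so no interval was set for the low values of Ppara.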

Other observations

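Of the other marker lists, the 7 endothelial markers had a median of 0.54 on the log2 scale in TJ against HFD, where 7.41% of all genes were called higher. In GT against HFD 0 of 7 were called, against 3.63% of all genes (median 0.20, 1 with an unadjusted p under 0.05 in limma). The 8 lymphocyte markers summed to 3.72 to 16.3 FPKM in all libraries, and Ms4a1, a B cell gene, was listed at 0 in each. The 6 mesothelial markers summed to 30.4 to 78.8 FPKM in ND and 3.85 to 18.4 FPKM in the other groups. Apart from ND replicate 1, germ cell markers were highest in ND replicate 3 (2731 FPKM) and HFD replicate 1 (1928), and epididymis markers in HFD replicate 2 (1275).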
